A study of Mus musculus with 6 samples.

Results

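Neutrophils carry ready-made antimicrobial proteins in granules, and this account follows the mRNA of 10 genes for such proteins in macrophages derived from the marrow of mice with and without the transcriptional repressor Bach1. The genes were taken by name and by the class of store that their proteins are known for. Of 20018 gene symbols that could be matched to the array, 10 belong to the set. The azurophil granule class holds Mpo, Elane, Prtn3 and Ctsg, the specific granule class holds Ltf, Camp, Ngp and Lcn2, and S100a8 and S100a9 encode calprotectin. A symbol was given to a probe through the transcript accession that the probe carries, which found 11 probes for the 10 genes, 2 of them for Camp.

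The cells came from C57BL/6 mice that were 11 weeks old, and marrow was cultured for 5 days in medium with GM-CSF, a growth factor for granulocytes and macrophages, at 10 ng/mL. Wild-type mice carry the labels WT 1, WT 2 and WT 3, and mice with the Bach1 knockout carry the labels KO 947, KO 948 and KO 949. Each genotype had 2 mice labelled male (WT 1, WT 2, KO 947 and KO 948) and 1 labelled female (WT 3 and KO 949). Each mouse was an independent animal and gave 1 one-colour Agilent array, so n = 3 per genotype throughout. The labels do not say how the Bach1 allele was made, in which cells Bach1 is missing, or whether the cultures were sorted. GM-CSF supports granulocytes and dendritic cells as well as macrophages, and all of these could be in an unsorted culture.

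Granule proteins are made in sequence while a neutrophil matures in the marrow. Promyelocytes make azurophil granules, which hold myeloperoxidase and serine proteases, and later myelocytes make specific granules, which hold lactoferrin, cathelicidin and lipocalin 2. Calprotectin is not stored in a granule but fills the cytosol of neutrophils and monocytes, where the S100A8 and S100A9 subunits bind calcium and withhold zinc and manganese from microbes. Bach1 binds DNA with small Maf proteins, is released by heme, and is best known for holding down Hmox1, the gene of heme oxygenase 1.

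The stretch before the start of transcription is shown for 6 members, since it is where the granule classes could be compared by sequence. The sequences are from RefSeq (assembly GRCm38.p6), and each is the 250 bases before the annotated start, written 5′ to 3′ on the strand of the gene. Capitals mark matches to a C/EBP-type motif (TTGCNNAA) or a PU.1-type motif (GAGGAAGT), names of transcription factor families with known roles in granulocytes. S100a9 and S100a8 are the calprotectin pair, Ltf and Ngp stand for the specific granules, and Elane and Prtn3 for the azurophil granules.
S100a9, chr3:90695722-90695971, minus strand: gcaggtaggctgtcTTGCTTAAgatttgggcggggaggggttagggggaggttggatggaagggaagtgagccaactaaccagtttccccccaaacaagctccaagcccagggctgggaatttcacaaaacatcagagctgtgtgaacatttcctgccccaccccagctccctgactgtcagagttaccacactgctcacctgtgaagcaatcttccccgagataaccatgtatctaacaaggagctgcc
S100a8, chr3:90668821-90669070, plus strand: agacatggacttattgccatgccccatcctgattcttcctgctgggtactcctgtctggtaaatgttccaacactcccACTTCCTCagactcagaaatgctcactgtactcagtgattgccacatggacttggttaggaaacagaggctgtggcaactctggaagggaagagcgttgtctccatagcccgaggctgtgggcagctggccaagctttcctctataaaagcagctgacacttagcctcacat
Ltf, chr9:111019042-111019291, plus strand: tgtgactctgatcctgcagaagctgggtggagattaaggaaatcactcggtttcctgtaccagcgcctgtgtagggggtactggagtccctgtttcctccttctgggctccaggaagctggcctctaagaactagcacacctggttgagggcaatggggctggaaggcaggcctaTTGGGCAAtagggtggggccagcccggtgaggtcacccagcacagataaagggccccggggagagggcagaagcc
Ngp, chr9:110419558-110419807, plus strand: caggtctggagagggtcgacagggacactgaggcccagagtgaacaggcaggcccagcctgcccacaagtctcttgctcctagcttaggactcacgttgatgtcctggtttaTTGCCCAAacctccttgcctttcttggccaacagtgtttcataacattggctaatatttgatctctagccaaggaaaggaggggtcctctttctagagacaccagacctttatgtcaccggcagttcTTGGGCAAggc
Elane, chr10:79886062-79886311, plus strand: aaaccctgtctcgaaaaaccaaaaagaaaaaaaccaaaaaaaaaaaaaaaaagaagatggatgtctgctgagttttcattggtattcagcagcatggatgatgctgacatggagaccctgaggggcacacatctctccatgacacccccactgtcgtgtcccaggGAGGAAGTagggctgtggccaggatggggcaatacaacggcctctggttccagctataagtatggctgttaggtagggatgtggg
Prtn3, chr10:79879417-79879666, plus strand: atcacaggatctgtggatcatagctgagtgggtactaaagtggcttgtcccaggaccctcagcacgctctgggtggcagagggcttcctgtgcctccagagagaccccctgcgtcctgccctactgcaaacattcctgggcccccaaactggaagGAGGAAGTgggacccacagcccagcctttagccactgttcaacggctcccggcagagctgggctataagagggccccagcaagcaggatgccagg

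All 10 members had an entry in the promoter table, which holds 32851 promoters. Searched on both strands, the C/EBP-type motif was in 9.56% of all these 250-base windows and in 4 of the 10 members. Those were Ltf, with a match beginning 75 bases before the start, Ngp with matches at 138 and 11 bases, S100a9 at 236 bases and Lcn2 at 216 bases. The PU.1-type motif was in 2.44% of the windows and in another 4 members, namely Elane at 85 bases, Prtn3 at 95 bases, Mpo at 224 bases and S100a8 at 172 bases. So 3 of 4 azurophil genes had the PU.1-type letters and 3 of 4 specific granule genes the C/EBP-type letters, and no member had both. The core of the antioxidant response element (TGACNNNGC), the kind of sequence that Bach1 binds, stood in 10.2% of the windows and in 0 of the 10 members. A GATA-type motif (GATAAG) stood in 6.55% and likewise in 0 members. No match of one motif overlapped a match of another. A match is only a run of letters here, and the missing ones say nothing of binding outside these windows.

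All members were measured on every array. All 11 probes were well above background on all 6 arrays, none of their spots was saturated or marked as an outlier, and each probe had 1 spot per array, so all 10 members passed the filter on dim probes. Over all spots, 70.3% to 73.2% were well above background on the WT arrays and 62.5% to 65.1% on the KO arrays. The WT arrays and KO 947 shared 1 slide, and KO 948 and KO 949 were on another. For Bach1 itself the probe gave 2.21, 2.48 and 2.59 in the WT mice (1, 2 and 3) against 1.45, 2.00 and 2.23 in the KO mice (947, 948 and 949) on the log2 scale defined below (difference -0.54 ± 0.24, SE, limma adjusted p = 0.262), and since its place relative to the deleted part is not known here, it checks no label. Hmox1 was 2.14 ± 0.25 (SE, adjusted p = 0.0115) higher in KO, with no overlap between the genotypes.

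Across the set, S100a9 was lower in the KO cultures and the other 9 members did not pass the test. Levels are log2 signals minus the log2 of the 75th percentile of the same array, differences are KO minus WT with the standard error (SE), and each p is from limma with Benjamini-Hochberg adjustment over the 15736 genes tested, with a threshold of 0.05. Of the 10 members, 1 was called lower and 0 higher, against 2.27% of all tested genes called lower and 1.14% called higher (3.41% in either direction). At an unadjusted p under 0.05 there were 6 lower members and 0 higher, against 11.6% and 8.87% of all genes. The difference was below 0 for 9 of 10 members, against 50.8% of all genes. In 5 of 10 members all KO values were lower than all WT values, which held for 13.5% of all genes. The reverse order, every KO array above every WT array, held for 13.4% of all genes and for 0 members. The median difference over the members was -0.76, and over all tested genes it was -0.01. In bulk RNA, fewer cells of a type and less RNA per cell cannot be told apart, and this holds for every difference given here.

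**Figure D1:**
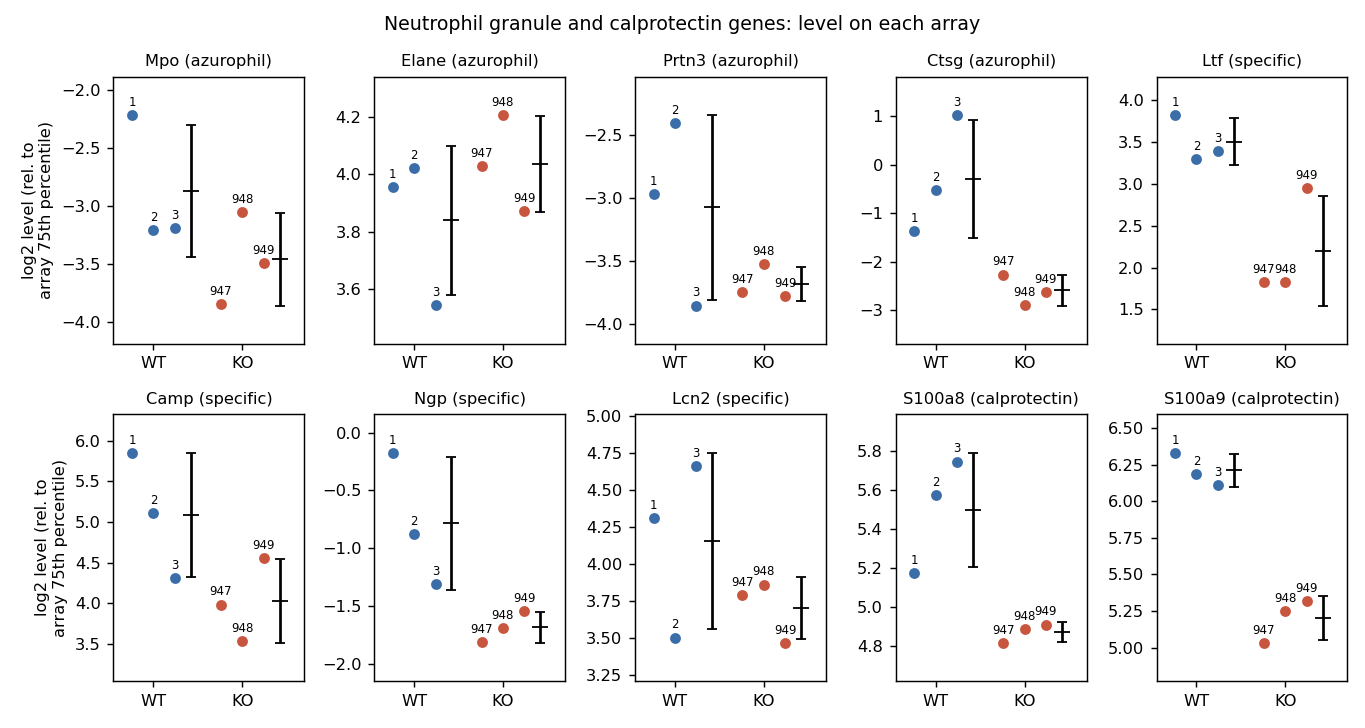
Each panel gives 1 gene, with the log2 level relative to the array's 75th percentile on the vertical axis and each array as a point labelled by mouse (blue WT, red KO); the bar beside each group is the mean ± SD of 3 mice, and each panel has its own vertical range. The 3 KO points lie below the 3 WT points for Ctsg, Ltf, Ngp, S100a8 and S100a9, and the groups overlap for the other 5 genes.

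S100a9, the larger calprotectin subunit, fell about 2-fold. It read 6.33, 6.19 and 6.11 in the WT mice (1, 2 and 3) against 5.03, 5.25 and 5.32 in the KO mice (947, 948 and 949). All KO arrays were low, and the spread within a genotype was small, with 1.17-fold from the lowest to the highest WT mouse and 1.22-fold among the KO mice. The difference was -1.01 ± 0.15 (SE, 95% interval -1.37 to -0.65, limma adjusted p = 0.0256), a 2.01-fold lower signal in KO. The call was lost once the slide entered as a fixed block (-1.18, adjusted p = 0.066), which leaves the difference to KO 947 alone. With the slide as a random block the call was kept (-1.07, limma adjusted p = 0.0319). With scaling to the array median, which moved the median of all genes to 0.21, the call was lost (-0.79, adjusted p = 0.0548). It was also lost without WT 1, WT 2, WT 3, KO 948 or KO 949 (adjusted p from 0.0553 to 0.0993), without the female mice (0.115) and with sex as a covariate (0.0539), while the difference stayed between -1.18 and -0.79 over all the alternatives.

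S100a8 encodes the partner subunit, and its gene lies beside S100a9 in the RefSeq gene order. It read 5.18, 5.58 and 5.75 in the WT mice (1, 2 and 3) against 4.82, 4.89 and 4.91 in the KO mice (947, 948 and 949). Here too all KO arrays lay below all WT arrays, and the KO mice lay within 1.07-fold of each other while the WT mice spanned 1.48-fold. The difference of -0.63 ± 0.18 (SE, 95% interval -1.06 to -0.19) had an adjusted p of 0.122 and was not called. Whether S100a8 and S100a9 differ in the size of their change was not tested. The mean of the calprotectin pair, each gene centred on its own mean, was 0.31, 0.44 and 0.48 for the WT mice against -0.52, -0.38 and -0.33 for the KO mice.

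The specific granule genes all had differences below 0, and none of the 4 passed the test. At an unadjusted p under 0.05 there were 3 lower and 0 higher among them. Their median difference was -0.98, and it was -0.64 without WT 1. Ltf, the gene of lactoferrin, an iron-binding protein, read 3.82, 3.30 and 3.40 in the WT mice (1, 2 and 3) against 1.82, 1.82 and 2.96 in the KO mice (947, 948 and 949). KO 949 stood apart from the other KO mice and close to the lowest WT mouse. The Ltf difference was -1.31 ± 0.34 (SE, 95% interval -2.12 to -0.50, adjusted p = 0.0964), and without KO 949 it passed the test (-1.68, adjusted p = 0.034).

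Camp encodes the precursor of the cathelicidin antimicrobial peptide. Its brighter probe read 5.84, 5.11 and 4.31 in the WT mice (1, 2 and 3) against 3.99, 3.54 and 4.56 in the KO mice (947, 948 and 949). The groups overlapped, since KO 949 read above WT 3, and the WT mice alone spanned 2.89-fold. The difference was -1.06 ± 0.43 (SE, 95% interval -2.08 to -0.04, adjusted p = 0.229). The other Camp probe gave the same order of arrays within each genotype, with 4.86, 4.0 and 3.37 for WT against 2.77, 2.43 and 3.61 for KO and a difference of -1.14. Without WT 1 the difference of the brighter probe was -0.68.

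Ngp encodes neutrophilic granule protein, a cathelin-domain relative of Camp. It read -0.17, -0.88 and -1.31 in the WT mice (1, 2 and 3) against -1.82, -1.69 and -1.55 in the KO mice (947, 948 and 949). The groups did not overlap, with WT 1 the highest array and WT 3 only just above the KO mice. The difference was -0.90 ± 0.29 (SE, 95% interval -1.59 to -0.21, adjusted p = 0.15), and it was -0.59 without WT 1. Lcn2 encodes lipocalin 2, which takes up bacterial siderophores. It read 4.31, 3.5 and 4.66 in the WT mice (1, 2 and 3) against 3.79, 3.86 and 3.47 in the KO mice (947, 948 and 949). WT 2 lay among the KO mice, and the difference of -0.45 ± 0.31 (SE, 95% interval -1.18 to 0.28) had an adjusted p of 0.456.

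The azurophil granule genes did not share a direction. None of the 4 passed the test, with 1 lower and 0 higher at an unadjusted p under 0.05 and a median difference of -0.60. Elane, the gene of neutrophil elastase, was the member whose mean was higher in KO. It read 3.96, 4.02 and 3.54 in the WT mice (1, 2 and 3) against 4.03, 4.21 and 3.87 in the KO mice (947, 948 and 949). The genotypes overlapped, with a difference of 0.20 ± 0.19 (SE, adjusted p = 0.603). The 95% interval, -0.25 to 0.64, leaves out a fall of the size seen for S100a9. Elane stayed above 0 in every alternative that gave it a value, and with scaling to the array median it read 0.41.

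Prtn3 encodes proteinase 3 and lies beside Elane in the RefSeq gene order, yet its values were ordered otherwise. It read -2.97, -2.40 and -3.85 in the WT mice (1, 2 and 3) against -3.74, -3.53 and -3.77 in the KO mice (947, 948 and 949). WT 3 was the lowest array of all, the WT mice spanned 2.73-fold and the KO mice 1.19-fold. The difference was -0.61 ± 0.35 (SE, 95% interval -1.45 to 0.23, adjusted p = 0.385), and it was -0.27 without WT 2 and -1.0 without WT 3. Mpo encodes myeloperoxidase, which makes hypochlorous acid. It read -2.22, -3.21 and -3.20 in the WT mice (1, 2 and 3) against -3.84, -3.05 and -3.49 in the KO mice (947, 948 and 949). WT 1 stood above all other arrays and the rest overlapped, and the difference of -0.59 ± 0.33 (SE, 95% interval -1.38 to 0.20, adjusted p = 0.372) was -0.26 without WT 1.

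Ctsg, the gene of cathepsin G, had the largest difference among the members and also the widest spread. It read -1.37, -0.53 and 1.02 in the WT mice (1, 2 and 3) against -2.26, -2.89 and -2.62 in the KO mice (947, 948 and 949). All KO arrays were below all WT arrays, but the WT mice themselves spanned 5.24-fold. The difference was -2.30 ± 0.57 (SE, 95% interval -3.65 to -0.94), a 4.92-fold lower signal, with an adjusted p of 0.0849. It was -1.64 without WT 3, the highest mouse (adjusted p = 0.0834).

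**Figure D2:**
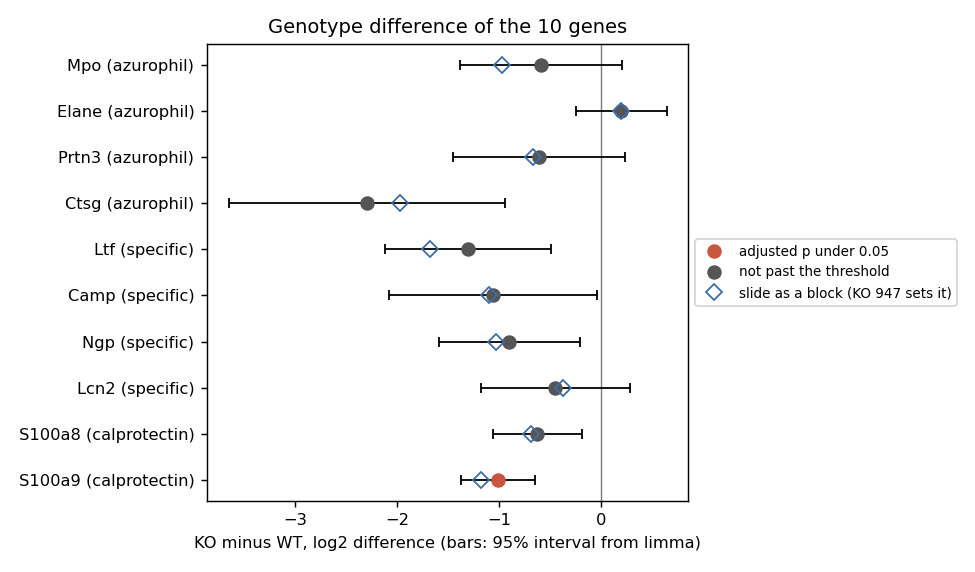
Points give the KO minus WT log2 difference of each member by class, with its 95% interval from limma as a bar, n = 3 arrays per genotype. Open diamonds give the difference with the slide as a fixed block, set by KO 947. The point of Elane is the 1 to the right of 0, and S100a9 is the member whose adjusted p (0.0256) is under 0.05.

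How many members passed depended on how limma estimated the spread. With a trend and robust estimation 4 members were called lower, namely Ctsg (adjusted p = 0.0447), Ltf (0.0476), S100a8 (0.0472) and S100a9 (0.00246), where 2.92% of all genes were called lower. With array weights 3 were called lower (Ctsg at 0.0328, Ltf at 0.0486 and S100a9 at 0.0101), where 6.93% of all genes were. At a threshold of 0.1 the original fit called S100a9, Ctsg and Ltf, against 4.59% of all genes. With the slide as a fixed block 0 members were called by limma (0.394% of all genes called lower). At an unadjusted p under 0.05 there were 3 members, against 2832 of 15736 genes in either direction. With the slide as a random block S100a9 alone was called (1.18% of all genes called lower). With scaling to the array median 0 were called (1.46% of all genes called lower), with 4 at an unadjusted p under 0.05, against 4340 of 15736 genes in either direction. In no alternative did a member change the sign of its difference.

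Within the slide that holds both genotypes, KO 947 differed from the WT arrays by -1.18 for S100a9 and -0.68 for S100a8. The specific granule genes differed by -1.68 (Ltf), -1.10 (Camp), -1.03 (Ngp) and -0.37 (Lcn2), and the azurophil genes by -1.97 (Ctsg), -0.97 (Mpo), -0.67 (Prtn3) and 0.19 (Elane). With 1 KO array on that slide, these values rest on a lone mouse.

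The arrays also differed among themselves within a genotype. With each gene centred on its mean over the 6 arrays, the specific granule genes averaged 0.92 in WT 1 and 0.23 and 0.24 in WT 2 and WT 3. Among the KO mice they averaged -0.58, -0.65 and -0.17, with KO 949 nearest to the WT mice. The azurophil genes averaged 0.36, 0.48 and 0.39 for WT against -0.44, -0.30 and -0.49 for KO, a near-even average that hides the opposite order of single genes, since WT 3 was the highest mouse for Ctsg (2.46) and the lowest for Prtn3 (-0.48) and Elane (-0.40).

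**Figure D3:**
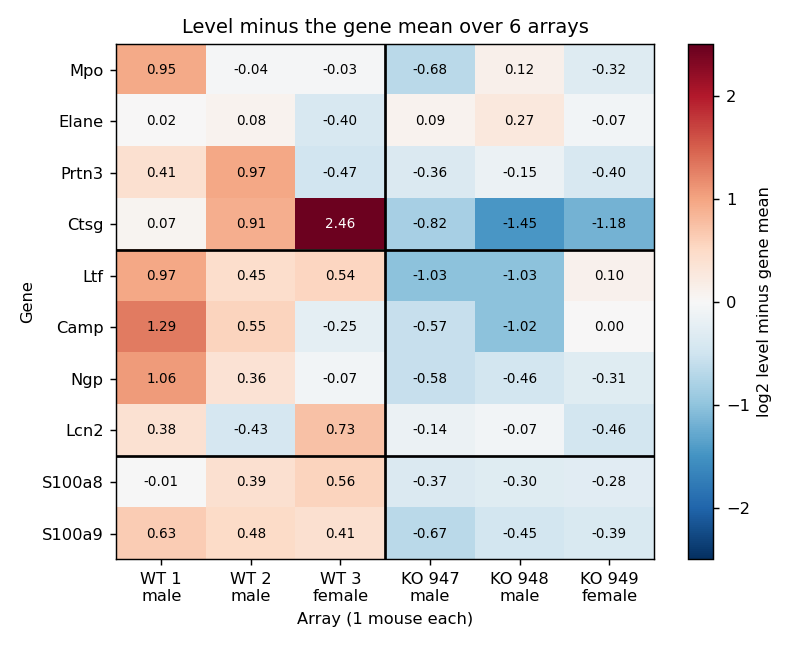
Rows are the members by class, columns the 6 arrays, and colour and printed value give the log2 level of a gene on an array minus its own mean over the 6 arrays. WT 1 is high for Ltf, Camp, Ngp and Mpo, WT 3 is high for Ctsg and Lcn2, and KO 949 is the highest KO array for Ltf and Camp.

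The genes nearest to each class average were sought among all tested genes by the mean absolute distance of their centred levels over the 6 arrays. For the azurophil class they were Hdac8, a histone deacetylase (0.0576), Lin28b, an RNA-binding protein (0.0618), and Phlpp1, a phosphatase (0.0618). The specific granule average was nearest to Olfr531 and Olfr1138, named as olfactory receptor genes (0.0588 and 0.104), and to Stab2, a scavenger receptor (0.101). The calprotectin average was nearest to Asb11 (0.046), to Bmf, a pro-apoptotic gene (0.0591), and to Csrnp1 (0.0641). These genes were picked for that likeness, so their levels are a description.

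Related genes outside the set were read from lists of the same granule classes, their receptors and their regulators. Of 76 such genes tested, 4 were called lower and 1 higher, against 2.27% and 1.14% of all genes, with a median difference of -0.06. All KO arrays were below all WT arrays for 18 of the 76, against 13.5% of all genes. The reverse order, held by 13.4% of all genes, occurred too, as for Serpinb1a, Cebpe and 3 of 7 genes on a list of receptors (Tlr4, Cd33 and Lrp1). Among 7 other azurophil granule and promyelocyte genes none was called by limma (1 lower and 1 higher at an unadjusted p under 0.05), and the median was -0.23. The largest differences there were 1.10 for Serpinb1a, an inhibitor of elastase and its relatives (adjusted p = 0.0783), and -0.93 for Ms4a3, a marker of granulocyte-monocyte progenitors (adjusted p = 0.61), whose KO mice ranged from -3.63 to 0.20.

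Among 9 other specific granule genes tested, of 10 listed, 2 were called lower and 0 higher, and the list's median was -0.20. Itgb2l, an integrin-like gene, read -1.32, -1.03 and -1.70 for WT against -3.77, -4.15 and -3.15 for KO (-2.34 ± 0.30, SE, adjusted p = 0.0157). Chil1, a chitinase-like protein of specific granules, read 0.74, 0.59 and 1.43 for WT against -1.34, -1.20 and -1.54 for KO (-2.28 ± 0.25, SE, adjusted p = 0.0112). Both had groups far apart, yet Itgb2l was no longer called without WT 1 (adjusted p = 0.0718) or WT 2 (0.0603), and Chil1 was no longer called without WT 1 (0.0502).

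Gelatinase granules and secretory vesicles are the stores formed last. Of 8 such genes tested, of 9 listed, Mmp25, a membrane-bound matrix metalloproteinase, was the 1 called lower and 0 were called higher, with a median of 0.12. Mmp25 read -2.41, -2.83 and -2.12 for WT against -4.96, -4.12 and -4.93 for KO (-2.22 ± 0.29, SE, adjusted p = 0.0168). It was no longer called without WT 1 (0.0792) or KO 949 (0.0511). Of 7 neutrophil surface and receptor genes tested, of 8 listed, 0 were called lower, with 3 lower and 2 higher at an unadjusted p under 0.05 in limma. Their median was -0.77. With the slide as a fixed block the differences were -2.42 for Itgb2l, -2.26 for Chil1 and -2.51 for Mmp25. None of these was called there (limma adjusted p from 0.0678 to 0.0839), and all of them stayed called with the slide as a random block.

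The transcription factors that direct granulocyte maturation were not called in either direction (0 of 11 by limma, with 2 lower and 1 higher at an unadjusted p under 0.05), and their median was 0.10. Cebpe, needed for specific granules, read 3.40, 3.01 and 2.77 for WT against 3.91, 3.96 and 3.93 for KO (0.87 ± 0.19, SE, adjusted p = 0.0621). Its KO arrays all lay above its WT arrays, the opposite order to Ltf and Ngp, and it passed with scaling to the array median (adjusted p = 0.0305). Myb, a factor of immature cells, read -2.57, -2.75 and -2.74 for WT against -3.82, -3.40 and -3.34 for KO (-0.83 ± 0.18, SE, adjusted p = 0.0595).

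The other genes of the S100 family, small calcium-binding proteins, gave no call. Of 12 tested, 0 were called by limma (1 lower and 1 higher at an unadjusted p under 0.05), and the median was -0.02. The largest differences were -1.06 for S100a14 (adjusted p = 0.466) and 0.70 for S100b (adjusted p = 0.393). A list drawn up for receptors of calprotectin and lipocalin 2, which also held Ltbr and Lrp1, gave 0 calls in 7 genes tested of 8 listed. At an unadjusted p under 0.05 in limma, 1 was lower and 2 higher, and the median was 0.26. Ager, encoding RAGE, read -4.92, -5.58 and -4.58 in WT and did not rise well above background in any KO mouse. The lowest levels well above background on the WT arrays were near these values, at -5.74, -6.16 and -5.76. The bound on the fold between the means was 1.91, and 1.63 without WT 3. Ager was not called by limma (adjusted p = 0.065), and over the alternatives its fitted difference ran from -1.69 to -0.29. The endotoxin receptor gene Tlr4 read 2.17, 1.85 and 2.28 for WT against 3.08, 2.88 and 2.53 for KO (0.73 ± 0.20, SE, adjusted p = 0.112).

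Inhibitors of neutrophil serine proteases gave 0 calls by limma in 5 genes tested of 8 listed (0 lower and 1 higher at an unadjusted p under 0.05). Their median was 0.12, and their largest differences were those of Serpinb1a, given above, and Serpina1a, encoding an alpha-1-antitrypsin (-0.54, adjusted p = 0.368). Genes for siderophores and iron sequestration gave 0 calls in 5 tested of 6 listed, 0 at an unadjusted p under 0.05, and a median of -0.04. Bdh2, which makes a mammalian siderophore, differed by -0.27 (adjusted p = 0.654), and Ftl1, the ferritin light chain, by -0.13 (adjusted p = 0.719).

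Neighbours of the members in the RefSeq gene order were read too, since granule protease genes lie in clusters. Of 7 neighbours tested, of 11 listed, 1 was called lower and 0 higher, and the median was -0.64. Mcpt8, a basophil protease of the cluster that holds Ctsg, read -2.53, -3.01 and 0.63 in WT 1, 2 and 3. It did not rise well above background in any KO mouse, and the bound on the fold between the means was 19.98 (limma adjusted p = 0.0254). As for Ctsg, WT 3 was the highest mouse, and without it the bound was 9.1-fold. Mcpt8 was not called once the slide entered as a fixed block (adjusted p = 0.131), nor without WT 1 (0.0733), KO 948 (0.0818) or KO 949 (0.0655). With normexp and quantile normalization it was not called either. With the slide as a random block it stayed called. Over the alternatives its fitted difference ran from -6.64 to -2.7, so the size of the fall depends on the processing.

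**Figure D4:**
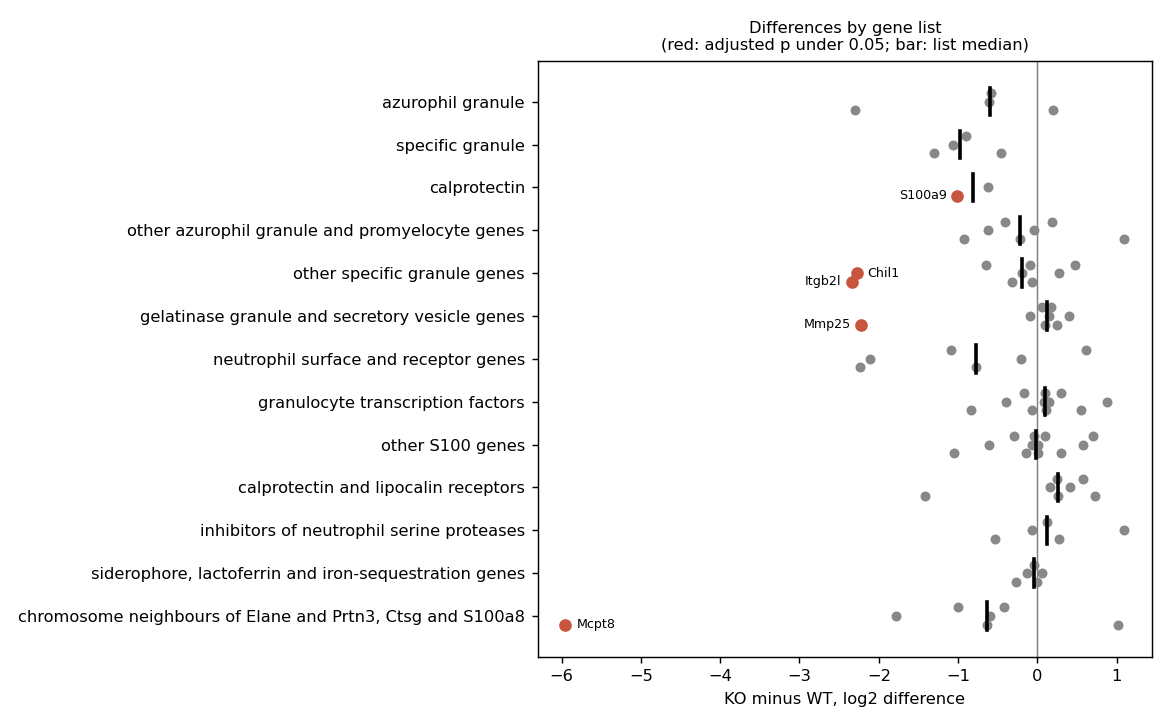
Each point is a gene, placed by its KO minus WT log2 difference and by list, with the members' classes in the upper 3 lines, red for an adjusted p under 0.05 and a black bar for the list's median. S100a9, Chil1, Itgb2l, Mmp25 and Mcpt8 are the red points, all left of 0; the 1 related gene called higher is not drawn, though it counts in the median of its list, and the point of Mcpt8 is its fitted value, and its KO signal was not well above background.

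Markers of the cell types that such a culture can hold were summed for each array, as linear signals divided by that array's 75th percentile. Macrophage markers were well above background on all arrays (8 of 8 with a probe, of 9 listed), their sum was 351 to 403 in WT and 324 to 364 in KO, and 0 of 8 were called by limma (1 lower and 0 higher at an unadjusted p under 0.05). The largest differences among them were -1.29 for C1qa, a complement gene of resident macrophages (adjusted p = 0.0604), and 0.32 for Lyz2 (adjusted p = 0.305). Neutrophil markers summed to 151 to 179 in WT and 150 to 171 in KO, ranges that overlap, and 1 of 7 tested, Itgb2l, was lower. A linear sum follows its brightest genes, here Csf3r and Mmp8 (log2 WT means 6.86 and 5.38). The rest had WT means of -0.66 or lower and add little to it. Of the 7 tested, 5 had a difference below 0 and 2 above. Of their 7 genes, 7 were well above background on all WT arrays and 5 on all KO arrays, and no probe was named for the defining marker Ly6g. Csf3r, the G-CSF receptor, differed by -0.20 and Mmp8, a collagenase of specific granules, by 0.47, both not called. Cxcr2, a chemokine receptor of mature neutrophils, was well above background on 1 KO array (-2.11, adjusted p = 0.132), and Retnlg on 2, with KO 949 at -7.02 (-2.24, adjusted p = 0.451). The last 4 genes were named after their values were seen. The part of neutrophil number in the differences of the members was not tested.

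Progenitor markers summed to 2.24 to 2.64 in WT and 1.73 to 3.11 in KO, and 1 of 8 was called lower (Kit, -3.23, adjusted p = 0.042) and 0 higher. Monocyte markers summed to 7.60 to 11.6 in WT and 8.24 to 10.8 in KO, ranges that overlap, and 0 of 5 tested were called lower by limma (1 lower and 1 higher at an unadjusted p under 0.05). Dendritic cell markers summed to 233 to 278 in WT and 178 to 198 in KO without overlap, and 3 of 8 were called lower (Ccr7, Ciita and Cd209a) and 0 higher, with Xcr1 not above background on any array. That sum mostly follows its brightest genes, H2-Ab1 and Itgax (log2 WT means 7.33 and 6.11). These differed by -0.37 and -0.31, and neither was called. Eosinophil, mast cell and basophil markers also did not overlap, at 25.7 to 55.3 in WT and 7.16 to 23.1 in KO, with 2 of 8 lower (Mcpt8 and Prss34) and Ms4a2 not above background on any array. On the WT arrays that sum mostly follows Prg2 (log2 WT mean 5.02), which differed by -2.68, with KO 949 at -0.58, and was not called (limma adjusted p = 0.262). The next brightest, Siglecf, differed by 0.47 and was not called. Of the 8 tested, 7 had a difference below 0 and 1 above. Stromal markers were 4.81 to 24.8 in WT and 0.354 to 1.25 in KO, with 3 of 7 lower (Sparc, Col1a1 and Col1a2) and Lum not above background on any array. Lymphocyte markers were at 2.71 to 3.81 and 2.49 to 2.70, with 0 of 5 called (0 at an unadjusted p under 0.05) and Ms4a1 not above background. Erythroid markers were at 4.41 to 10.4 and 2.98 to 5.09, with 0 of 3 called (1 lower at an unadjusted p under 0.05). With an array left out in turn, Kit, Cd209a, Prss34 and Col1a1 each lost their call in at least 3 of the 6 cases, and Ccr7, Ciita, Sparc and Col1a2 in 0. With the slide as a random block Kit, Prss34 and Cd209a lost their calls, and Ccr7, Ciita, Sparc, Col1a1 and Col1a2 kept theirs. With the slide as a fixed block Ciita (adjusted p = 0.0404) and Sparc (0.0486) were still called. The calls of Ccr7 (0.0528), Col1a2 (0.0534), Col1a1 (0.0848), Kit (0.102), Prss34 (0.177) and Cd209a (0.214) were lost there. On the shared slide alone Ciita (0.0634) and Sparc (0.0666) were not called either. The dendritic, eosinophil, mast cell and basophil, stromal and, by a narrow gap, lymphocyte sums were thus lower on every KO array, as S100a9, S100a8, Ltf, Ngp and Ctsg were, and their part in these results was not tested.

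**Figure D5:**
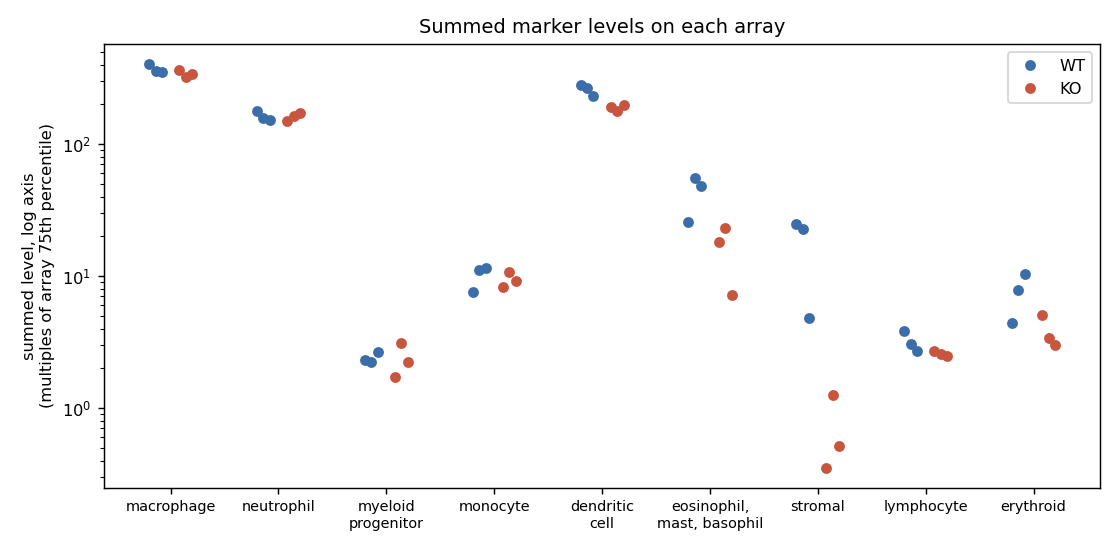
For each list of cell type markers, points give the summed linear signal relative to the array's 75th percentile on a log axis, 1 point per array (blue WT, red KO). The WT and KO points are apart for the dendritic, stromal, lymphocyte and eosinophil, mast cell and basophil lists and overlap for the macrophage, neutrophil, progenitor, monocyte and erythroid lists.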

How the data were processed

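Per the file headers, the deposited scanner files hold spot intensity values from Agilent Feature Extraction 10.7.3.1 (9.1 per the submitters' processing notes), background-subtracted and not scaled between arrays, for 55681 non-control probes designed on mm9. The authors also deposited log2 values of 3215 probes, whose scaling between arrays the sources used here do not give. That table served as an alternative. Symbols came from transcript accessions through RefSeq genes (GRCm38.p6), which named 26413 probes.

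From the intensities, log2 signal minus the log2 75th percentile of each array was computed. Outlier spots were left out, spots of a probe averaged, and probes kept that were well above background on at least 3 of 6 arrays. The brightest probe stood for a gene. Genotypes were compared with limma 3.58.1 in R 4.3.3, two-sided, without covariates, and the fit was tested on simulated data. Where no array of a group was above background, the fold is a bound: the brighter group's mean log2 level less that of the dimmer group, where each dim array counts at its own level or at its lowest level well above background, whichever is higher. This bound is for the array means and leaves out the spread between mice. The number of arrays limits the precision.

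The members and all lists were chosen with earlier results of these data known. Named genes were every member and, per list, up to 4 called genes or else the 2 largest differences. Alternatives covered normalization, background (normexp, offset 50, on the median spot signals, where mean signals had been planned), filters, probe choice, outlier spots, slide, sex, variance model, array weights, threshold, the authors' table and each array left out. Of the related genes, the 1 called higher is counted and not otherwise reported here. A planned comparison of protein sequences was not run, and no protein table was used here.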

Additional observations from a re-analysis of the deposited data

How the results depend on the processing

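The difference of each member kept its direction in all alternatives that gave it a value. S100a9 passed the threshold of 0.05 in 11 of the 22 that kept it. One of these was the authors' table, which is no separate evidence, as explained below. Others, such as averaging a gene's probes or keeping outlier spots, left its own values unchanged, since S100a9 had 1 probe and no outlier spots. No paired analysis was possible because the mouse numbers of the WT and KO groups are not shared. Precision is limited by 3 arrays per genotype. The causes of the changes below were not tested.

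Of the 10 members, 1 was called in the original fit. The count was 0 with scaling to the array median, the slide as a fixed block, sex as a covariate, the arrays labelled male alone, and every probe on its own. By limma, 3 to 7 were at an unadjusted p under 0.05 in these settings. Over all genes 2301 to 4340 of 15736 were, and 6780 of 37827 with every probe on its own. It was 4 with trend and robust estimation, 3 with array weights, 3 at a threshold of 0.1 and 4 of 4 in the authors' deposited table, where 94.4% of the 1844 named genes were called (44.8% lower). The genotypes did not overlap for any gene of that table, so its 4 members (Ctsg, Ngp, S100a8 and S100a9) are no separate evidence. With 1 array left out it ran from 0 to 1. The median difference of the calprotectin pair was -0.60 with scaling to the array median, against -0.82.

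Of the 76 related genes, 5 were called in the original fit. The count was 8 with scaling to the array median, 0 with the slide as a fixed block and 0 on the slide with both genotypes (15 and 17 at an unadjusted p under 0.05). It was 8 with trend and robust estimation, 17 with array weights and 13 of 15 in the authors' deposited table. With 1 array left out it ran from 1 (without WT 1) to 8 (without KO 947).

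Over all genes, 537 were called (180 higher and 357 lower). The count was 343 with quantile normalization, 275 without a filter, 84 with the slide as a fixed and 255 as a random block, and 24 on the slide with both genotypes. It was 305 with sex as a covariate, 182 in males, 810 with trend and robust estimation, 1747 with array weights and 1151 at a threshold of 0.1. With 1 array left out it ran from 77 (without WT 1) to 900 (without KO 947). Scaling to the array median gave 384 higher and 230 lower.

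The direction turned for Bdh2 without WT 1 (0.0585, against -0.50 to 0.06 over all arrays left out in turn) and for Ftl1 with scaling to the array median (0.0865). It also turned for Serpina1a with the slide as a fixed block and on the slide with both genotypes (0.0986 each). None of these 3 was called in the original fit.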

Other observations

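The genotype difference in the mouse pair labelled female was set against that in the mice labelled male, a comparison chosen after seeing the data. With 1 female per genotype the spread comes from the male mice alone, and each female is assumed to vary like them. Such a fit cannot decide whether the difference of a member depends on sex, so only sizes are given. Among the members the largest female minus male differences were those of Ctsg (-2.01), Camp (1.97) and Ltf (1.30). They were picked for their size and are a description only. In the female pair Camp read 4.31 in WT 3 and 4.56 in KO 949, whereas in the males it read 5.84 and 5.11 in WT and 3.99 and 3.54 in KO. For Ctsg the female pair was the farther apart, with 1.02 in WT 3 and -2.62 in KO 949.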
